A study of Arabidopsis thaliana with 10 samples.

Results

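The comparison set 10-day-old light-grown GFP seedlings against 3-day-old dark-grown GFP seedlings of Arabidopsis thaliana, using 4 of the 10 libraries of a study of dexamethasone-inducible lines. Its members are the 16393 genes that have a value in both of the study's RPKM tables, of 18411 genes with a value in either, and the 2 libraries of the GFP line in each table. No value set the membership beyond that, but the comparison and the gene lists below were chosen with earlier results of these data known.

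Both groups were whole seedlings of the accession Col-0 from the line titled GFP, the control line of the study, and neither was free of dexamethasone, a synthetic glucocorticoid that switches on transgenes placed under its control. The green group had spent 10 d under long days on agar plates with 0.5% sucrose and 500 nM dexamethasone (2 libraries). The dark-grown group was kept in the dark for 3 d in wells of salt medium for which no sucrose is named, with 10 µM dexamethasone added for the last 4 h, still unlit (2 libraries). The labels give the plate dose in mM at 1 place and in nM at 2 others, and nM is used here. The labels do not say which promoter drives GFP, how many lines it stands for, the hour of harvest or whether the libraries of a group are from different cultures. The p-values therefore rest on the spread between these libraries alone, which may be technical. Age, light, medium, sugar, dexamethasone schedule and experiment differ together between the groups and cannot be told apart in any result below.

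A seedling that germinates in the dark follows a programme called skotomorphogenesis: the hypocotyl elongates behind a closed apical hook, the cotyledons stay folded and their plastids remain etioplasts, and growth draws on lipid stored in the seed. Light, read by phytochromes, cryptochromes and phototropins, ends the activity of the COP1/SPA complex and of the PIF factors against light-response genes, and the seedling opens, greens and becomes able to feed itself by photosynthesis. The lists below follow that order: light receptors and their factors, chlorophyll and the photosynthetic apparatus, fuel and sugar, growth and hormones, the clock, then metabolism, stress and cell types.

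Levels are given as rescaled RPKM, that is reads corrected for the length of a gene and the size of a library as the authors deposited them, with each of the 4 libraries then divided by 1 median-ratio factor over the shared genes. The tables were normalized separately, and this factor is what puts the libraries on 1 scale. A gene with a value in 1 table only has no fold change, and libraries of other lines can decide whether a table keeps it. Changes are log2 values of green over dark-grown on the scale log2(rescaled RPKM + 0.5), which understates the change of low genes, with their standard error (SE) and the limma p-value adjusted over all 16393 genes. A gene is said to have risen or fallen where that p was under 0.05 and the change at least 2-fold. The shared genes held 12391865 and 18560783 reads in the green libraries and 13401452 and 12477754 in the dark-grown libraries. Replicates correlated at a Pearson r of 0.987 in green and 0.993 in dark-grown seedlings across genes, which are not independent replicates.

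Of the 16393 genes, 1976 rose (12.1%) and 1850 fell (11.3%) in green seedlings. These 2 percentages are the background against which the counts of every list are to be read, and the median change over all genes was 0.001. The lists were chosen with earlier results of these data known, so their counts beside this background are a description with no test. Calls in either direction made up 23.3% of genes. Without the 2-fold minimum 5220 genes were higher (31.8%) and 5069 lower (30.9%). Both green libraries lay above both dark-grown ones in 6852 genes (41.8%) and below them in 6829 (41.7%), among them all 1976 and all 1850 that were called. With a 4-fold minimum, 529 genes rose (3.23%) and 555 fell (3.39%). The balance of rises and falls rested on the scaling: 51.6% of calls were rises here, against 29.8% when each library was divided by its own sum (TPM-like, 1232 rises and 2905 falls), which moved the median of all genes by −0.305. The 100 genes with the highest level held 33.46% and 31.63% of the summed RPKM in green and 20.62% and 22.08% in dark-grown libraries.

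**Figure D1:**
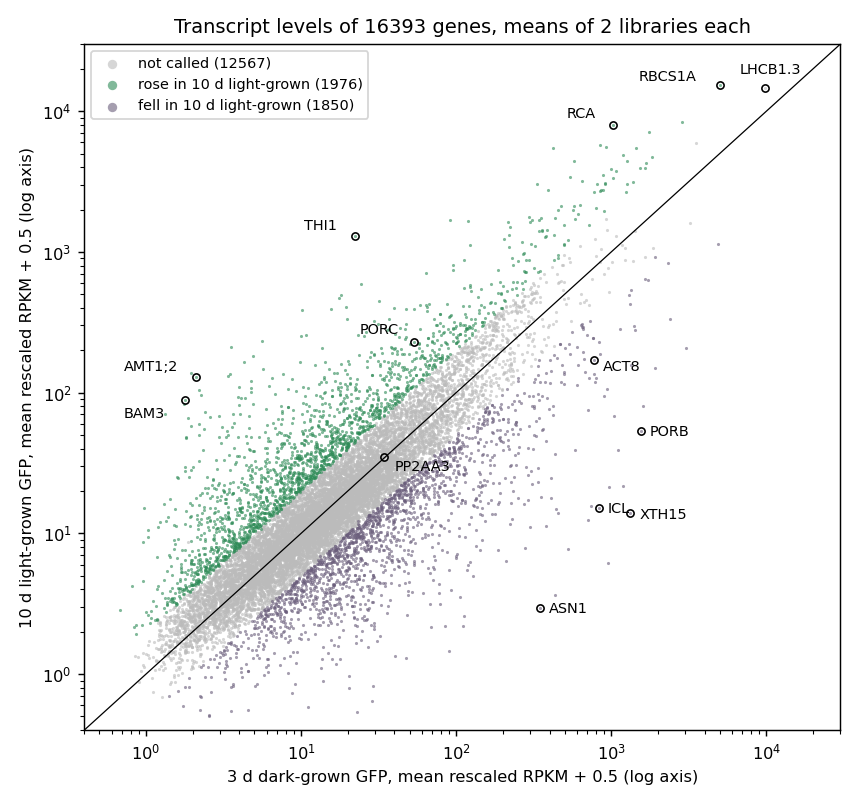
Mean level of each of the 16393 shared genes in 10 d light-grown GFP (vertical) against 3 d dark-grown GFP (horizontal), in rescaled RPKM + 0.5 on log axes, means of 2 libraries each; the line marks equal levels and colours mark the 1976 genes that rose and the 1850 that fell. The photosynthesis genes RCA and RBCS1A sit above the line at the top right, PORB, ICL, XTH15 and ASN1 far below it, and the reference gene PP2AA3 on it.

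Of 16 genes often used as references, 10 were not called, 3 of them (ACT7, TUB2 and EF1A) by the 2-fold minimum alone. PP2AA3, a phosphatase subunit, had 35.1 and 33.9 rescaled RPKM in green and 34.6 and 33.0 in dark-grown seedlings, and the groups overlapped (log2 change 0.03). SAND (AT2G28390, 0.02), TIP41L (AT4G34270, 0.09), the cyclophilin CYP5 (0.01) and the ubiquitin-conjugating enzyme UBC9 (−0.06) were not called either. Among the others not called, UBC21 changed by −0.25, UBQ10 by −0.24, ACT7 by −0.37, TUB2 by −0.48 and the elongation factor EF1A by 0.62. Cytoskeleton genes in the list were among those that fell: the actins ACT8 (−2.19) and ACT2 (−1.19) and the tubulins TUB4 (−1.78) and TUB6 (−1.47). The cytosolic glycolysis genes GAPC2 (1.89) and GAPC1 (1.08) rose, and the call of GAPC1 was lost under TPM-like scaling, with deposited values and without dark-grown replicate 1.

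Among the genes with a mean of at least 10 rescaled RPKM in the higher group and a symbol, 925 rose and 800 fell. The 12 with the largest rise held genes of plastid, nitrogen and starch metabolism. THI1, which makes the thiazole part of vitamin B1, had 1291 and 1321 rescaled RPKM in green seedlings, against 22.7 and 20.5 in dark-grown ones (log2 change 5.89 ± 0.09, limma adjusted p = 6.11e-07). AMT1;2, an ammonium transporter, had 121 and 139 rescaled RPKM in green and 1.69 and 1.52 in dark-grown seedlings. For CGLD27, a plastid protein conserved in green plants and algae, green libraries stood apart from each other, at 94.6 and 179.5 rescaled RPKM, yet both far above 1.57 and 1.304 in dark-grown ones (log2 change 6.08 ± 0.27). The others were ESM1 (5.91), a modifier of glucosinolate breakdown, the amylase BAM3 (5.65, annotated CT-BMY), the lipid-transfer-like EARLI1 (5.56), the flavonoid enzyme F3H (5.42), the plastoglobule protein FIB (5.38), the starch synthase GBSS1 (5.33), the alcohol dehydrogenase-like ELI3-1 (5.27), the glutathione transferase ERD9 (5.24) and the cytosolic fumarase FUM2 (5.18).

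The 12 genes with the largest fall were led by wall, starvation and lipid genes. ATPMEPCRD, a pectin methylesterase gene, had 3.46 and 2.80 rescaled RPKM in green and 404 and 458 in dark-grown seedlings (log2 change −6.90 ± 0.12, limma adjusted p = 6.11e-07). AIR1, an auxin-induced gene of root cultures, had 26.6 and 3.49 rescaled RPKM in green seedlings, which differed from each other, against 729 and 759.7 in dark-grown ones (log2 change −6.16 ± 0.75). DYL1, a marker of dormant buds, had 12.8 and 11.3 rescaled RPKM in green and 676 and 741 in dark-grown seedlings. Both groups of libraries were far apart in each of these genes, in the same direction. The oxysterol-binding protein gene ORP4C (−5.44), the sulfotransferase ST2A (−5.27) and the galactosidase BGAL7 (−5.16) also belong here, as do ASN1, XTH15, ICL, SEN1, BCAT-2 and DIN2, described with their lists.

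**Figure D2:**
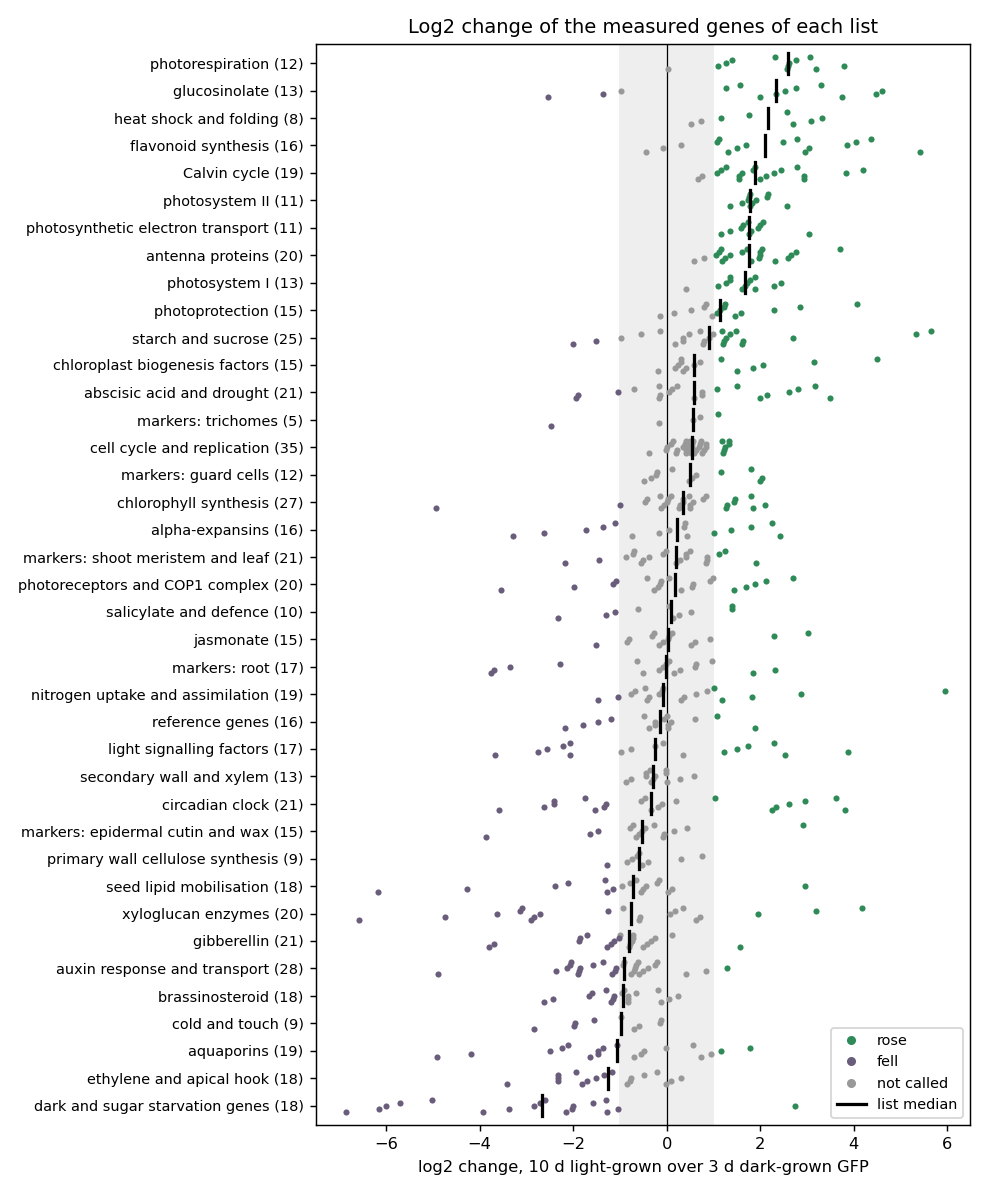
Log2 change of green over dark-grown GFP for the measured genes of each list of at least 5 (number in brackets), with coloured points for genes that rose or fell, grey points for genes not called, a black bar for the list median and a grey band for changes under 2-fold. Lists run from photorespiration (median 2.59) at the top to dark and sugar starvation genes (median −2.66) at the bottom.

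Of 20 measured photoreceptor and COP1 complex genes, 5 rose and 4 fell, with a median of 0.17, which was −0.14 under TPM-like scaling. PHYA, the phytochrome that accumulates in darkness, had 29.5 and 27.3 rescaled RPKM in green seedlings, against 322 and 349 in dark-grown ones (log2 change −3.54 ± 0.09, limma adjusted p = 1.35e-06), the largest change among the 5 phytochromes. PHYB (−0.18), PHYC (−0.12), PHYD (0.04) and PHYE (0.98) were not called. The phototropins, receptors of blue light for bending and chloroplast movement, moved in opposite directions. PHOT1 had 83.3 and 76.2 rescaled RPKM in green and 296 and 337 in dark-grown seedlings (−1.98), while PHOT2, used at higher light, had 64.6 and 68.5 in green and 20.3 and 20.23 in dark-grown seedlings (1.69). CRY2, the cryptochrome that is degraded in blue light, fell (−1.09). Among the repressors of light responses, SPA1 (2.12), SPA3 (1.88) and SPA4 (1.43) rose, and SPA2 (−0.14) was not called. COP1 itself changed by 0.92, under the 2-fold minimum. Of the genes that reset the ultraviolet-B receptor, RUP2 rose (2.70) and RUP1 fell (−1.14).

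Of 17 measured light signalling factors, 6 rose and 6 fell, with a median of −0.25. The B-box factors, zinc-finger proteins that work with or against HY5, split in this comparison. BBX25 had 62.5 and 73.2 rescaled RPKM in green seedlings, against 4.01 and 4.22 in dark-grown ones (log2 change 3.88 ± 0.12, limma adjusted p = 1.72e-06), and its close relative BBX24 also rose (1.23), a call lost under TPM-like scaling. BBX20 (annotated BZS1) had 0.782 and 1.95 rescaled RPKM in green and 20.7 and 23.6 in dark-grown seedlings (−3.67), and BBX21 fell as well (−2.22). BBX20 and BBX21 are known to promote light responses. BBX22 (annotated LZF1) was not called (−0.08), and its groups overlapped. BBX23, another member, had 38.5 and 35.2 RPKM in the table of dark-grown seedlings, the only table with a value for it here.

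The PIFs, bHLH factors that hold back greening in the dark, also split. PIF3 fell (−2.07), PIF1 changed by −0.77 without passing the 2-fold minimum, and PIF4 (1.51), PIF5 (1.74, annotated PIL6) and PIF8 (2.53, annotated UNE10) rose. PIF7 had 26.4 and 24.5 RPKM in the light-grown table, with no value here for dark-grown seedlings. HFR1, which binds and blocks PIFs, had 6.95 and 9.34 rescaled RPKM in green and 51.4 and 48.6 in dark-grown seedlings (−2.56), and its relative PAR2 (−2.75) and the shade-induced homeobox gene ATHB2 (−2.06) also fell. PIL1 and PAR1, which rise in shade, had values in the dark-grown table only, 25.9 and 25.1 and 33.7 and 41.1 RPKM. HY5, the bZIP factor at the centre of this network, passed neither p under 0.05 nor the 2-fold minimum (0.34), while its homologue HYH rose (2.2996).

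**Figure D3:**
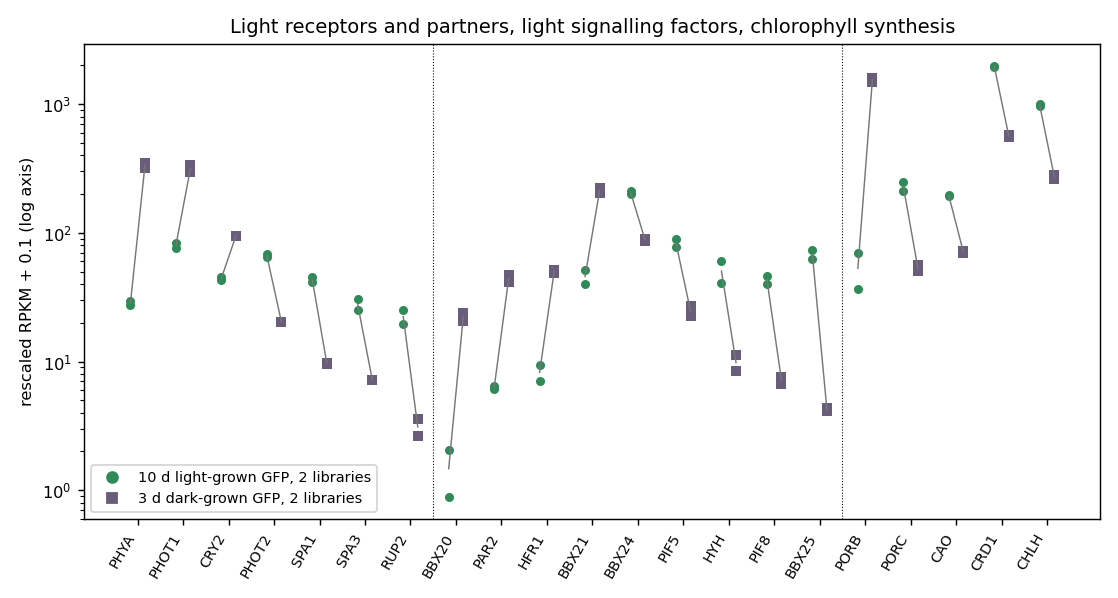
Level in each of the 4 libraries, in rescaled RPKM + 0.1 on a log axis, of 7 light receptors and partners, 9 light signalling factors and 5 genes of chlorophyll synthesis; circles are 10 d light-grown and squares 3 d dark-grown GFP, and lines join group means. PHYA and PORB are low in green libraries and high in dark-grown ones, and BBX25 and PORC the reverse.

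Chlorophyll synthesis as a whole did not move to the same degree: of 27 measured genes 7 rose and 2 fell, with a median of 0.36. The protochlorophyllide oxidoreductases (POR), which need light to make chlorophyllide and of which PORA and PORB serve the etioplast, moved in opposite directions. PORB (AT4G27440) had 69.1 and 36.8 rescaled RPKM in green seedlings, against 1497 and 1608 in dark-grown ones (log2 change −4.93 ± 0.26, limma adjusted p = 1.05e-05). PORC, the form of green leaves, had 248 and 212 rescaled RPKM in green and 50.1 and 56.1 in dark-grown seedlings (log2 change 2.102 ± 0.11, limma adjusted p = 1.07e-05). Neither gene's groups overlapped, although the green libraries differed from each other in PORB. PORA had 879 and 981 RPKM in the dark-grown table, the highest of the 978 genes with a value in that table only, so no fold change is given. These values set the light labels against known markers of etiolation, and none went against a label. They cannot check age apart from light.

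The steps before and after POR rose in part. CRD1, the cyclase, had 1994 and 1952 rescaled RPKM in green seedlings, against 554 and 576 in dark-grown ones (1.803). CHLH, a magnesium chelatase subunit, had 1003 and 961 in green and 263 and 283 in dark-grown seedlings (1.84). CAO, which makes chlorophyll b, rose (1.45), with GUN4 (1.45), DVR (1.299) and HEMA1 (1.27), the main glutamyl-tRNA reductase; the calls of DVR and HEMA1 were lost under TPM-like scaling. HEMA2, its minor form, was just past the 2-fold minimum in the other direction (−1.0003), and that call was lost with a pseudocount of 1 and without green replicate 2 or dark-grown replicate 2. CHLP, at 1082 and 1010.4 rescaled RPKM in green and 803 and 911 in dark-grown seedlings, passed neither p under 0.05 nor the 2-fold minimum.

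The windows before PORA and PORB are shown because these genes led the dark-grown pigment programme and both hold the same clock-related motif. The search used 250 bases before the annotated start (TAIR10.1, RefSeq), both strands, and 3 plain motifs: the G-box CACGTG, bound by PIFs and HY5, the I-box GATAAG, and the evening element AAAATATCT, bound by the clock factors CCA1 and LHY. Of 16235 such windows of measured nuclear genes, 7.34% held a G-box, 12.5% an I-box and 2.41% an evening element, and no motif overlapped another in a printed window. Capitals mark the motifs, PORB is cut at the end of its neighbour, and all windows read 5′ to 3′ towards the gene.
PORA promoter (chr5:21992815-21993064, minus strand): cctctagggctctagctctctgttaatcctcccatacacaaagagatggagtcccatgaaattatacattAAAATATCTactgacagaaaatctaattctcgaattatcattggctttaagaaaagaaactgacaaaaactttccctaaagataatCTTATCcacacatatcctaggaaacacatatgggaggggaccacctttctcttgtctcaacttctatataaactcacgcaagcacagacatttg
PORB promoter (chr4:13725360-13725545, plus strand): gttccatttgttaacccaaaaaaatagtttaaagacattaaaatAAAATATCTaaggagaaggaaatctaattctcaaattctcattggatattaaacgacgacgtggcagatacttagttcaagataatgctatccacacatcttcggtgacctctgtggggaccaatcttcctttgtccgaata
PORA held 1 evening element and 1 I-box and PORB 1 evening element, while the window of PORC held none of the 3 motifs. A match describes letters in this window and is not shown to be a site. PORA and PORB were picked in part for the shared motif, so the shares over all windows are given with no test.

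Nearly every listed nuclear gene of the photosynthetic apparatus rose. Of 20 antenna genes 18 rose and 0 fell (median 1.75), of 13 photosystem I genes 12 rose (median 1.68), and all 11 of photosystem II (median 1.78) and all 11 of electron transport (median 1.76) rose. Under TPM-like scaling 10 photosystem I, 11 photosystem II and 10 electron transport genes rose. LHCB1.1 (annotated CAB2), a major antenna protein of photosystem II, had 5536 and 5362 rescaled RPKM in green seedlings, against 376 and 459 in dark-grown ones (log2 change 3.71 ± 0.15, limma adjusted p = 4.2e-06). Its near copy LHCB1.3 (annotated CAB1) was the gene with the highest level in dark-grown seedlings, at 9041 and 10552 rescaled RPKM, and had 15650.0 and 13571 in green ones. Both green libraries were above both dark-grown libraries for LHCB1.3, but the change of 0.58 did not pass the test (limma adjusted p = 0.0829). LHCB1.1, LHCB1.2 and LHCB1.3 are so alike that the split of reads between them is uncertain.

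In the other antenna genes the range was wide. LHCB2.1 (2.65), LHCB1.2 (2.77) and the photosystem I antenna gene LHCA1 (2.59) had the larger changes, and LHCA6 (1.06) and LHCB4.1 (1.11) lay close to the 2-fold minimum and lost their calls under TPM-like scaling and with deposited values, LHCB4.1 also without green replicate 1. For LHCA1 the green libraries had 5902 and 5180.4 rescaled RPKM, against 851 and 984 in the dark-grown ones. LHCB1.4 (0.79) was, with LHCB1.3, one of the antenna genes that did not rise. Under TPM-like scaling 13 antenna genes still rose.

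Within the photosystems the changes ran from 1.36 to 2.58 in photosystem II and from 0.42 to 2.45 in photosystem I. PSBO2, an oxygen-evolving complex protein, had 1847 and 1673 rescaled RPKM in green and 265 and 324 in dark-grown seedlings (2.58), and its more abundant partner PSBO1 had 4881 and 4524 in green and 1667 and 2011 in dark-grown seedlings (1.36). NPQ4, the photosystem II protein that senses excess light, rose too (2.14). In photosystem I, PSAP (2.45), PSAN (2.29) and PSAO (1.90) had the larger changes, and PSAE-2 (0.42) was the member that did not rise. In electron transport, PGRL1A, a protein of cyclic electron flow, had 370.0 and 417 rescaled RPKM in green seedlings, against 48.2 and 45.9 in dark-grown ones (3.05). Plastocyanin DRT112 (1.96), the ATP synthase subunit ATPD (2.05) and ferredoxins FD1 (1.99) and FED A (1.64) rose by about as much as each other.

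**Figure D4:**
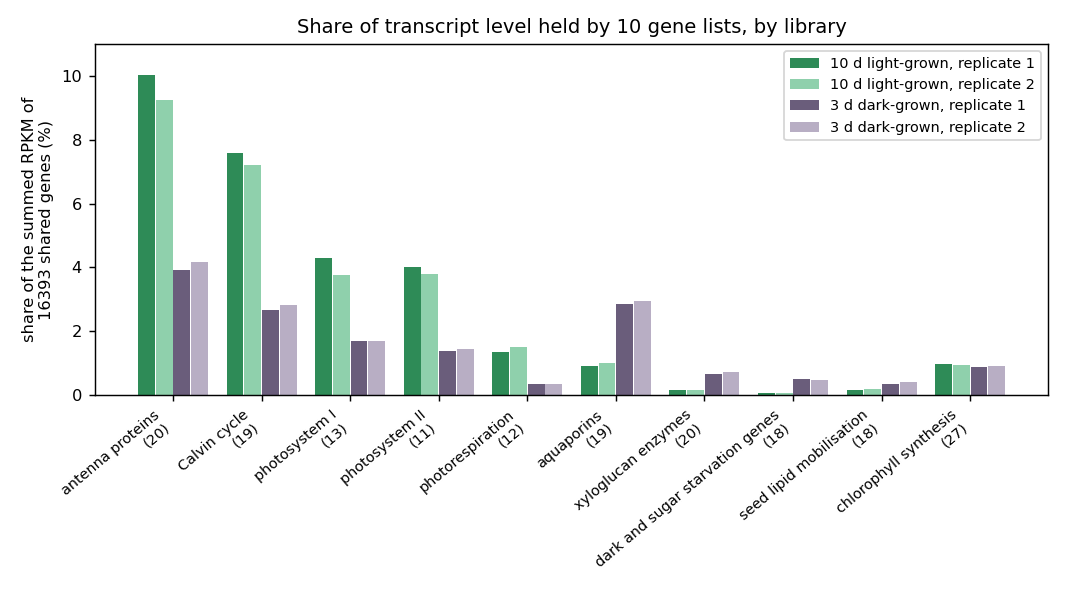
Share of the summed RPKM of the 16393 shared genes, in percent, held by 10 gene lists in each of the 4 libraries; green bars are 10 d light-grown and purple bars 3 d dark-grown GFP, 1 bar a library. Antenna genes held 10.02% and 9.23% in green and 3.94% and 4.17% in dark-grown libraries, and aquaporins 0.90% and 1.01% in green and 2.84% and 2.94% in dark-grown libraries.

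Shares of the summed RPKM do not depend on the median-ratio factors, but they divide each library by its own sum, as TPM-like scaling does. Antenna genes held 10.02% and 9.23% in green libraries, against 3.94% and 4.17% in dark-grown ones. Calvin cycle genes held 7.59% and 7.20% in green libraries and 2.68% and 2.83% in dark-grown ones. In both lists the green libraries lay well above the dark-grown ones, which already gave several percent of their transcript level to photosynthesis genes. In whole-seedling RNA, fewer cells of a type and less RNA per cell cannot be told apart.

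Carbon fixation followed the light reactions. Of 19 measured Calvin cycle genes 17 rose and 0 fell (median 1.89), and 14 rose under TPM-like scaling. RBCS1A, a small subunit of Rubisco, had the highest mean level of all genes in green seedlings, at 16121 and 14628 rescaled RPKM, against 4613 and 5419.9 in dark-grown ones (log2 change 1.62 ± 0.23, limma adjusted p = 0.000828). RCA, Rubisco activase, had 7918 and 7899.8 in green and 972 and 1088 in dark-grown seedlings (log2 change 2.94 ± 0.16). The plastid aldolase FBA1 had the largest change, with 1721 and 1660.4 rescaled RPKM of FBA1 in green and 87.1 and 95.3 in dark-grown seedlings (4.21), and FBA2 at 2.93. CP12-2, a linker that ties enzymes of the cycle together, rose (3.83), and its paralogue CP12-1 did not pass the 2-fold minimum (0.66). RBCS2B changed by 0.75, but the reads of RBCS1B, RBCS2B and RBCS3B come from near-identical copies and are uncertain one by one.

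Photorespiration, which salvages the product of Rubisco's oxygenase reaction, had the highest median of all lists of at least 5 genes (2.59). In it 11 of 12 measured genes rose and 0 fell, and 9 rose under TPM-like scaling. Without dark-grown replicate 2 the median of the glucosinolate list was higher, at 2.67 against 2.56. GLDP1, a glycine decarboxylase subunit, had 1532 and 1761 rescaled RPKM in green seedlings, against 111 and 126 in dark-grown ones (log2 change 3.79 ± 0.12, limma adjusted p = 2.12e-06). Peroxisomal steps rose with the mitochondrial ones: the glycolate oxidase GOX1 (3.20, a near copy of GOX2), the hydroxypyruvate reductase HPR (3.07) and the catalase CAT2 (2.76). GLYK, the kinase that closes the cycle in the chloroplast, had 169 and 163 rescaled RPKM in green and 165 and 159.6 in dark-grown seedlings, a change of 0.03. It was the member that did not rise.

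Regulators of the plastid moved less evenly. Of 15 chloroplast biogenesis factors 6 rose and 0 fell (median 0.58). SIGE, a sigma factor that directs the plastid RNA polymerase in light, had 42.8 and 56.2 rescaled RPKM in green seedlings, against 1.69 and 1.69 in dark-grown ones (log2 change 4.50 ± 0.15, limma adjusted p = 2.24e-06). SIGC (1.497) and SIGA (1.16) also rose, the call of SIGA being lost under TPM-like scaling and with deposited values, whereas SIGB (0.72), SIGD (0.35) and SIGF (0.42) stayed under the 2-fold minimum. The GARP factors GLK1 (2.06) and GLK2 (1.85), which switch on antenna and chlorophyll genes, rose, as did the GATA factor CGA1 (3.14), with its relative GNC at −0.18. The plastid retrograde signalling gene GUN1 had 153 and 158 rescaled RPKM in green and 115 and 138 in dark-grown seedlings. It passed neither p under 0.05 nor the 2-fold minimum (0.30).

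Of 15 photoprotection genes 9 rose and 0 fell (median 1.14), and 5 rose under TPM-like scaling. ABA1 is the zeaxanthin epoxidase, which also acts on the way to abscisic acid. It had 315 and 351 rescaled RPKM in green and 19.2 and 19.6 in dark-grown seedlings (log2 change 4.07 ± 0.09). CSD2, a plastid superoxide dismutase, had 304 and 483 in green libraries, which stood apart from each other, and 61.0 and 44.9 in dark-grown ones (2.86). The one-helix protein gene OHP1 (2.29) and the stress-enhanced protein gene SEP1 (1.58) rose as well.

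Fuel genes ran the other way. Of 18 measured seed lipid mobilisation genes 7 fell and 1 rose, with a median of −0.72. ICL (AT3G21720, chromosome 3, 7652487 to 7656053, TAIR10.1), isocitrate lyase of the glyoxylate cycle, had 4.58 and 24.8 rescaled RPKM in green seedlings, against 676 and 982 in dark-grown ones (log2 change −6.17 ± 0.65, limma adjusted p = 0.000205). Among shared genes with a symbol and a green mean of at least 10 rescaled RPKM, ICL was 1 of the 10 whose green libraries lay furthest apart. Both of its green values lay far below the dark-grown ones. MLS, malate synthase, the other enzyme particular to that cycle, had 2.89 and 3.62 in green and 49.1 and 106 in dark-grown seedlings (log2 change −4.28 ± 0.32). PCK1, the gluconeogenic carboxykinase, fell (−2.38), with the peroxisomal oxidases ACX2 (−2.10) and ACX4 (−1.33), the lipase SDP1 (−1.27) and the citrate synthase CSY3 (−1.14). PMDH2, a peroxisomal malate dehydrogenase that photorespiration also uses, had 738 and 750.3 rescaled RPKM in green and 98.0 and 91.4 in dark-grown seedlings and rose (2.97). The core oxidation genes PED1 (−0.56) and MFP2 (−0.51) did not reach the 2-fold minimum. Of 14 genes in the list of seed storage and oil bodies 1 was measured, SDP6 (0.37), which encodes neither a storage nor an oil body protein. PAP85 had a value in the light-grown table only, and 12 had a value in neither, so the list gives no change for such genes.

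The list of dark and sugar starvation genes had the lowest median of all lists of at least 5 genes (−2.66): 17 of 18 measured genes fell and 1 rose. These genes break down branched-chain amino acids, cell walls and sugars or store nitrogen as asparagine when carbon is short. DIN6 (annotated ASN1, AT3G47340, chromosome 3, 17437840 to 17441431, TAIR10.1), asparagine synthetase, had 2.59 and 2.33 rescaled RPKM in green seedlings, against 328 and 362 in dark-grown ones (log2 change −6.87 ± 0.10, limma adjusted p = 6.11e-07). Its homologue ASN2 went the other way, with 144 and 247 in green and 26.0 and 29.5 in dark-grown seedlings (2.74). DIN1 (annotated SEN1), a senescence marker, had 4.85 and 9.58 rescaled RPKM in green and 499 and 549 in dark-grown seedlings (−6.16).

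The catabolic enzymes fell with them. BCAT2, a branched-chain aminotransferase, had 0.558 and 1.34 rescaled RPKM in green and 99.1 and 79.6 in dark-grown seedlings (−5.999), and the next steps IVD (−2.84), MCCA (−3.37) and MCCB (−1.58) fell by less. The glucosidase DIN2 (−5.71), the raffinose synthase-like DIN10 (−3.94) and the extracellular protein EXL4 (−5.02) fell too. GDH1 (−1.04) lay closest to the 2-fold minimum, and its call was lost without green replicate 2 or dark-grown replicate 1. In the 250 bases before these genes, 7 of the 17 that fell held an I-box (41.2%, against 12.5% of all windows) and 3 a G-box. DIN6 and DIN1 held 2 I-boxes each. These are counts of letters in genes chosen by their change, given with no test.

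In starch and sucrose metabolism 11 of 25 measured genes rose and 2 fell (median 0.90), with 7 and 3 under TPM-like scaling. BAM3, the plastid amylase that degrades leaf starch at night, had 86.5 and 91.1 rescaled RPKM in green seedlings, against 1.28 and 1.28 in dark-grown ones (log2 change 5.65 ± 0.11, limma adjusted p = 6.11e-07). GBSS1, which makes amylose, had 128 and 143 in green and 2.06 and 3.91 in dark-grown seedlings (5.33). ADG1, the small subunit of the enzyme that starts starch synthesis, rose (2.69), and so did its large subunits APL1 (1.61) and APL3 (1.48). The sugar exporter SWEET12 (−2.003) and the vacuolar transporter SWEET16 (−1.51) fell, and SWEET11, a close partner of SWEET12, came to −0.97.

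In nitrogen uptake and assimilation 5 of 19 measured genes rose and 2 fell, with a median of −0.08 that was 0.21, with 0 falls, without green replicate 1. Under TPM-like scaling 3 rose and 4 fell. The plastid pathway that also recaptures photorespiratory ammonium rose, with GLU1, the ferredoxin glutamate synthase, at 569 and 614 rescaled RPKM in green and 153 and 182 in dark-grown seedlings (1.83), and GS2, plastid glutamine synthetase, at 1129.9 and 1142 in green and 486 and 511 in dark-grown seedlings (1.19, a call lost under TPM-like scaling). The phloem nitrate transporter NRT1.7 rose (2.87). The nitrate reductases split, with NIA1 down (−1.46) and NIA2 up (1.02), and both calls were frail: that of NIA1 was lost without green replicate 1, and that of NIA2 under TPM-like scaling, with deposited values, and without green replicate 2 or dark-grown replicate 1.

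Cell wall loosening genes moved in both directions. Of 20 measured xyloglucan enzymes (XTH), which cut and rejoin wall xyloglucan, 9 fell and 3 rose (median −0.77, −0.50 without green replicate 1 and −1.26 without green replicate 2). XTH15 (AT4G14130, chromosome 4, 8137020 to 8138392, TAIR10.1) had 14.9 and 11.9 rescaled RPKM in green seedlings, against 1228 and 1429.6 in dark-grown ones (log2 change −6.58 ± 0.13, limma adjusted p = 6.11e-07). XTH4 had 159 and 154 in green and 1315 and 1376 in dark-grown seedlings (−3.10), and XTH30 fell by more (−4.75). The auxin-responsive XTH17 (−3.14), XTH18 (−2.85) and XTH19 (−3.64), which resemble each other closely, fell together. In the other direction XTH6 had 117 and 106 rescaled RPKM in green and 5.77 and 5.56 in dark-grown seedlings (4.18), and XTH7 (3.20) and XTH32 (1.96) rose.

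Of 16 alpha-expansins, which loosen walls at low pH, 5 rose and 5 fell, with a median of 0.21 that changed sign under TPM-like scaling (−0.10) and without dark-grown replicate 1 (−0.06). EXPA11 had 18.0 and 13.9 rescaled RPKM in green and 141 and 181 in dark-grown seedlings (−3.29), and EXPA9 (−2.63) and EXPA8 (−1.35) fell. EXPA15 had 59.4 and 25.8 in green libraries, apart from each other, and 6.601 and 7.27 in dark-grown ones (2.42), and EXPA10 (1.796) and EXPA1 (1.38) rose. Of 9 primary wall cellulose synthesis genes 1 fell, the endoglucanase KOR1 (−1.28), with 3 falls under TPM-like scaling. Of 13 secondary wall and xylem genes 0 were called, but 2 fell under TPM-like scaling and 1 with deposited values or without green replicate 2; their median of −0.29 was −0.50 without dark-grown replicate 1 and −0.06 without dark-grown replicate 2. In that list the xylem peptidase XCP2 had 50.7 and 54.5 rescaled RPKM in green and 52.0 and 54.7 in dark-grown seedlings, and all 13 changes lay between −0.86 and 0.59.

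In the lists of hormones tied to hook formation and elongation falls outnumbered rises. Of 18 measured ethylene and apical hook genes 10 fell and 0 rose (median −1.26). HLS1, the acetyltransferase-like gene without which no hook forms, had 2.65 and 2.23 rescaled RPKM in green seedlings, against 14.6 and 13.9 in dark-grown ones (log2 change −2.33 ± 0.14, limma adjusted p = 1.56e-05). ACO4, an enzyme of the last step of ethylene synthesis, came to 0.10. The receptors ERS2 (−2.34), ETR2 (−2.32) and ERS1 (−1.81) fell, and ETR1 (−0.21) and EIN4 (−0.49) stayed under the 2-fold minimum. The signalling genes CTR1 (−1.52), EIN2 (−1.35) and EIN3 (−1.18) fell too, as did the ethylene-induced organ size gene ARGOS (−3.41). The synthase genes ACS5 (10.2 and 10.99 RPKM), ACS8 (1.996 and 1.86 RPKM) and ACS2 (1.90 and 1.71 RPKM) had values in the dark-grown table only, and ACS7 (0.478 and 2.83 RPKM) and ACS4 (0.296 and 0.0778 RPKM) in the light-grown table only.

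Of 28 measured auxin response and transport genes 13 fell and 1 rose (median −0.92), and 13 more had a value in the dark-grown table only, against 1 in the light-grown table only. IAA19, an Aux/IAA repressor that auxin itself induces, had 2.93 and 3.15 rescaled RPKM in green seedlings, against 108 and 102 in dark-grown ones (log2 change −4.89 ± 0.10, limma adjusted p = 6.52e-07). Of 9 measured Aux/IAA genes 6 fell and 1 rose, including IAA2 (−2.38), IAA3 (−2.14, annotated SHY2) and IAA7 (−2.05), and IAA14 rose (1.28, a call lost under TPM-like scaling). Of the 12 SAUR genes listed, which promote cell expansion, 7 had values in the dark-grown table only and 5 were measured, of which SAUR21 fell (−1.89); SAUR19 to SAUR24 are near-identical copies, so their single values are uncertain. The auxin importer LAX3 (−1.88), the exporter ABCB19 (−1.85) and the exporters PIN3 (−1.09) and PIN7 (−1.11) fell; the call of PIN7 was lost without dark-grown replicate 2. The synthesis gene YUC8 had 13.6 and 13.4 RPKM and IAA29, a PIF target, 18.5 and 13.6 RPKM in the dark-grown table.

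Gibberellin and brassinosteroid genes, which promote elongation in the dark, gave 9 falls and 1 rise among 21 measured genes (median −0.81) and 8 falls and 0 rises among 18 (median −0.93). Under TPM-like scaling the falls were 15 and 13. GASA4, a gibberellin-induced small peptide gene, had 172 and 128 rescaled RPKM in green and 1794 and 2048 in dark-grown seedlings (log2 change −3.69 ± 0.16). GA3OX1, which makes the active hormone, fell (−1.86), as did GASA14 (−3.81) and the DELLA repressor gene RGL1 (−1.88), and RGL2 rose (1.57). In the brassinosteroid list PRE6 (annotated KDR), a growth-promoting small factor, had 19.6 and 20.5 rescaled RPKM in green and 127 and 127 in dark-grown seedlings (−2.64). BAS1, which inactivates the hormone in light, fell as well (−2.43), with the synthesis genes ROT3 (−1.60) and DWF4 (−1.16). Members that promote and members that limit the hormone's action were both among those that fell.

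Aquaporins, the water channels of plasma membrane (PIP) and vacuole (TIP), fell in 10 of 19 measured genes and rose in 2 (median −1.05, 4 rises without green replicate 2). TIP2;3 had 10.9 and 18.1 rescaled RPKM in green seedlings, against 482 and 395 in dark-grown ones (log2 change −4.90 ± 0.22, limma adjusted p = 6.06e-06). TIP1;2, the most abundant of them in dark-grown seedlings, had 1138 and 1129 in green and 4446 and 5356 in dark-grown seedlings (−2.11). PIP2;4 (−4.18), PIP1;5 (−2.50) and PIP1C (−2.24) fell on the plasma membrane side. TIP4;1 rose (1.79), and PIP1;4 rose (1.15) with a call lost under TPM-like scaling and with deposited values. PIP2B and PIP2;3 are near copies and uncertain. Several aquaporins are known from roots, and the root marker values given below moved in the same libraries; their part in this result was not tested.

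The clock genes moved in both directions. Of 21 measured, 7 rose and 8 fell, with a median of −0.34 that was −0.19 without dark-grown replicate 2. In the plant clock, the morning factors CCA1 and LHY bind evening elements and hold down evening genes such as TOC1 and LUX, which act back on them, so a set of clock genes reads the hour as well as the growth state. The labels give no hour of harvest; long days entrain green seedlings, and dark-grown seedlings had no light cycle named. Differences of phase and of level cannot be told apart.

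CCA1 had 110.5 and 138 rescaled RPKM in green seedlings, against 8.41 and 8.07 in dark-grown ones (log2 change 3.83 ± 0.12, limma adjusted p = 2.08e-06). LHY had 66.7 and 83.1 in green and 12.2 and 11.2 in dark-grown seedlings (2.63), and PRR9, the earliest of the day-phased repressors, had 17.4 and 17.0 in green and 0.899 and 0.965 in dark-grown seedlings (3.63). The morning-phased coactivators LNK1 (2.96) and LNK2 (2.35) and the CCA1 relatives RVE8 (2.26) and RVE1 (1.03) completed the 7 that rose, the call of RVE1 being lost under TPM-like scaling, with deposited values, and without green replicate 2 or dark-grown replicate 1. For RVE2, another relative, green seedlings had 6.89 and 8.34 rescaled RPKM and dark-grown ones 47.7 and 37.8 (−2.41), a fall, and RVE4 was not called (−0.55).

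Of the evening-phased genes most named here fell, and GI (−0.34) and ELF4 (−0.46) were not called. BOA had 0.612 and 0.608 rescaled RPKM in green seedlings, against 12.1 and 13.7 in dark-grown ones (log2 change −3.59 ± 0.15, limma adjusted p = 4.63e-06). Its partner in sequence LUX (annotated PCL1) had 5.05 and 4.67 in green and 18.0 and 16.8 in dark-grown seedlings (−1.74), and ELF3, which binds LUX in the evening complex, had 6.18 and 6.79 in green and 37.4 and 35.7 in dark-grown seedlings (−2.41). TOC1 (−1.29), PRR5 (−1.34), PRR3 (−2.62) and the RNA-binding output gene CCR2 (−1.53, annotated GRP7) fell as well. PRR7 (0.21), a day-phased repressor, was not called.

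**Figure D5:**
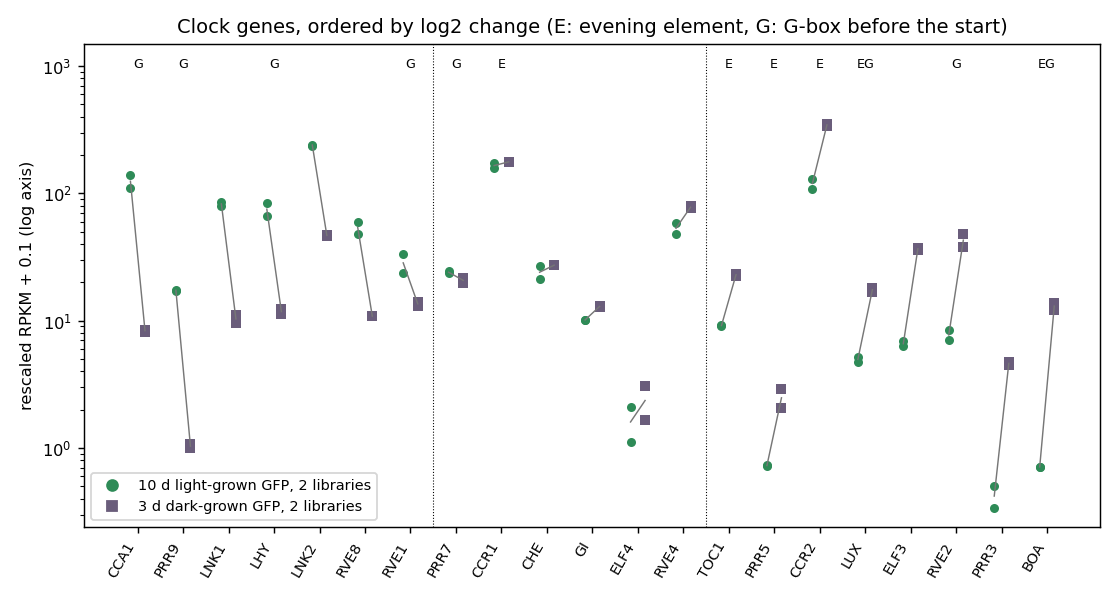
Level of the 21 measured clock genes in each of the 4 libraries, in rescaled RPKM + 0.1 on a log axis, ordered by log2 change and split by dotted lines into the 7 that rose, 6 not called and 8 that fell; circles are 10 d light-grown and squares 3 d dark-grown GFP, lines join group means. Letters mark genes whose 250 bases before the start hold an evening element (E) or a G-box (G): E stands over 5 of the 8 that fell and over 0 of the 7 that rose.

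The windows before these genes are shown because the set that fell and the set that rose differed in the motif that CCA1 and LHY bind. Of the 8 genes that fell 5 held an evening element (62.5%, against 2.41% of all windows) and 3 a G-box, and of the 7 that rose 0 held an evening element and 4 a G-box (57.1%, against 7.34%). The sets were formed by the change itself and the evening element was first described in clock-controlled genes, so these shares are a description with no test. CCR1, which was not called, also held an evening element, and PRR3, ELF3 and RVE2 fell without one. Capitals mark the 3 motifs as before (TAIR10.1, RefSeq, 5′ to 3′ towards the gene).
CCA1 (rose, G-box; chr2:19245341-19245590, plus strand): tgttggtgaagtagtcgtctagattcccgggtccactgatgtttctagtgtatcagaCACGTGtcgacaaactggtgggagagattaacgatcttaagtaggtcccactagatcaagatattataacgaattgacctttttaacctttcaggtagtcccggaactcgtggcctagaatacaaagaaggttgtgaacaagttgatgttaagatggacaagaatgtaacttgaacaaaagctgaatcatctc
LHY (rose, G-box; chr1:37872-38121, minus strand): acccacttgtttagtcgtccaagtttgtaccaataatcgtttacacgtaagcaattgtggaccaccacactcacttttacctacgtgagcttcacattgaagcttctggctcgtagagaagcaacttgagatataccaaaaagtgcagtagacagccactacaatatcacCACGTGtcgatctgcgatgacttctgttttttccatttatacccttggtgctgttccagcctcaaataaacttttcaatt
PRR9 (rose, 2 G-boxes; chr2:19232357-19232606, plus strand): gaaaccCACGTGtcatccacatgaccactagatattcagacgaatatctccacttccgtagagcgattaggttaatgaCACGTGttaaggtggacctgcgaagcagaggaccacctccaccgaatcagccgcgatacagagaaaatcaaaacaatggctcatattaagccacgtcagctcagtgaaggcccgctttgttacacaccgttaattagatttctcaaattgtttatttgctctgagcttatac
TOC1 (fell, evening element and I-box; chr5:24674713-24674962, plus strand): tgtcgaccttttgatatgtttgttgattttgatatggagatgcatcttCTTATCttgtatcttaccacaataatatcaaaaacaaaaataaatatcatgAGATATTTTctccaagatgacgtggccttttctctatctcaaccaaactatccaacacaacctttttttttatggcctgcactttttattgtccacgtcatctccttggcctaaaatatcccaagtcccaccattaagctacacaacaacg
PRR5 (fell, evening element; chr5:8358547-8358796, minus strand): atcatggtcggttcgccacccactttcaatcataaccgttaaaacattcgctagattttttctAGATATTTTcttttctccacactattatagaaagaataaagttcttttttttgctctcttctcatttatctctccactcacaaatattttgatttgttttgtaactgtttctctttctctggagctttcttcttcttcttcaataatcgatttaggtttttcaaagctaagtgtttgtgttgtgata
LUX (fell, G-box and evening element; chr3:17182792-17183041, plus strand): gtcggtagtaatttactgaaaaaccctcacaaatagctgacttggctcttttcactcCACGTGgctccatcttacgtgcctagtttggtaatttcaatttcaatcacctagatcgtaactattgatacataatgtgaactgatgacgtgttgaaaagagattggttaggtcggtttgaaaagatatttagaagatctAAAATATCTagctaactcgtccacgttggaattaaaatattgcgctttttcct
BOA (fell, G-box, I-box and evening element; chr5:24003638-24003887, plus strand): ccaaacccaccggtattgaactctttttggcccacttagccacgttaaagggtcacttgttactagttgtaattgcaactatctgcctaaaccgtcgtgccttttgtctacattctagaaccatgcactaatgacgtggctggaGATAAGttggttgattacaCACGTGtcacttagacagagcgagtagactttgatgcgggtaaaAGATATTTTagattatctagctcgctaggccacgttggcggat
CCR2 (fell, 3 evening elements; chr2:9266558-9266807, minus strand): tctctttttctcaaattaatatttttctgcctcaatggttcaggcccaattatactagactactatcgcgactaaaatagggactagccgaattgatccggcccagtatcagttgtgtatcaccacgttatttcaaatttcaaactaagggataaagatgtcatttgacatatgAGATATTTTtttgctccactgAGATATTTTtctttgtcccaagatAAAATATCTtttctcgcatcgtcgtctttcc
For the 69 genes that rose in the antenna, photosystem, electron transport and Calvin cycle lists, 15.9% of windows held a G-box, 21.7% an I-box and 2.90% an evening element.

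Flavonoid synthesis rose in 13 of 16 measured genes and fell in 0 (median 2.09), and 6 more of its genes had values in the light-grown table only. TT4, chalcone synthase, had 469 and 348 rescaled RPKM in green seedlings, against 20.4 and 17.5 in dark-grown ones (log2 change 4.38 ± 0.15, limma adjusted p = 2.55e-06). F3H had 105 and 88.1 in green and 2.09 and 1.47 in dark-grown seedlings (5.42), and the flavonol synthase FLS1 (3.85) and the glucosyltransferase UGT78D2 (4.04) followed. The general phenylpropanoid genes PAL1 (1.698) and PAL2 (1.49) rose by less. The anthocyanin genes DFR (78.7 and 47.5 RPKM) and LDOX (61.3 and 43.9 RPKM) and their regulator PAP1 (10.97 and 17.8 RPKM) were among those with values in the light-grown table only.

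Glucosinolate genes, of the sulfur-rich defence compounds of this plant family, rose in 10 of 13 measured genes and fell in 2 (median 2.33), with 10 more in the light-grown table only and 1, MYB122 (1.37 and 2.06 RPKM), in the dark-grown table only. The summed level of the 13 overlapped between groups, at 4747 and 3926 rescaled RPKM in green and 3757 and 4579 in dark-grown libraries. Their share of the summed RPKM was 0.595% and 0.505% in green and 0.609% and 0.717% in dark-grown libraries. CYP79B2, which converts tryptophan, had 74.7 and 86.7 rescaled RPKM in green and 1.86 and 5.05 in dark-grown seedlings (4.48). TGG2, a myrosinase, had 479.8 and 299 in green libraries, apart from each other, and 15.7 and 14.5 in dark-grown ones (4.61), and TGG1, the other, had 1559 and 1324 in green and 343 and 374 in dark-grown seedlings (2.002). TGG1 is also in the list of guard cell markers used below, and TGG2 is not. The regulator MYB51 (−2.54) and the specifier protein NSP1 (−1.35) fell. The chain elongation and core genes of methionine-derived glucosinolates had values in the light-grown table only: MAM1 (246 and 145 RPKM), CYP83A1 (203 and 127 RPKM) and the regulators MYB28 (50.2 and 49.97 RPKM) and MYB29 (50.7 and 38.4 RPKM).

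Stress and defence lists were mixed. Of 21 abscisic acid and drought genes 8 rose and 3 fell (median 0.57, 0.25 under TPM-like scaling or without green replicate 2, 0.37 without dark-grown replicate 1), with P5CS1, of proline synthesis, at 116 and 134 rescaled RPKM in green and 11.6 and 15.5 in dark-grown seedlings (3.17). RD22 (2.81) and the dehydrin RAB18 (3.49) rose, the call of RAB18 being lost in a fit of all 10 libraries, and the seed-stage factor ABI5 (−1.90) and the dehydrin COR47 (−1.94) fell. Of 8 heat shock and folding genes 6 rose and 0 fell (median 2.17), among them HSP70 at 215 and 292 in green and 20.001 and 29.9 in dark-grown seedlings (3.33) and the plastid disaggregase CLPB3 (2.70). Of 9 cold and touch genes 4 fell and 0 rose (median −0.97), or 6 fell without green replicate 2 or dark-grown replicate 1, TCH3 (−2.83) by the largest amount.

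Of 15 jasmonate genes 2 rose and 1 fell (3 under TPM-like scaling, 2 without dark-grown replicate 1), with a median of 0.04 that was −0.29 under TPM-like scaling, −0.12 with deposited values and −0.05 without dark-grown replicate 1. AOS, which commits to jasmonate synthesis, had 61.2 and 56.97 rescaled RPKM in green and 5.89 and 7.95 in dark-grown seedlings (3.02), AOC1 rose (2.29) and the repressor JAZ1 fell (−1.52). LOX2 (98.7 and 75.1 RPKM) and VSP2 (56.0 and 43.2 RPKM), common markers of the pathway, had values in the light-grown table only. Of 10 salicylate and defence genes 2 rose and 3 fell, with a median of 0.09 that was −0.22 under TPM-like scaling and −0.07 with deposited values or without dark-grown replicate 2; WRKY40 (−2.32) fell and the chitinase PR3 (1.39) rose.

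Genes of cell division rose in 6 of 35 measured and fell in 0 (median 0.54), with 2 rises under TPM-like scaling and 10 without green replicate 2. TSO2, a ribonucleotide reductase subunit, had 66.7 and 86.9 rescaled RPKM in green and 29.0 and 31.1 in dark-grown seedlings (1.33), and the kinesin HIK (1.34) rose. The cyclins CYCB1;1 (1.24) and CYCD3;1 (1.23) rose, both calls being lost under TPM-like scaling. Between them the 35 genes changed by little, with 29 not called.

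Markers of cell types moved unevenly, and their part in the lists above was not tested. Guard cell markers rose in 4 of 12 measured and fell in 0 (median 0.51), and their summed level was 1761 and 1556 rescaled RPKM in green, against 571 and 624 in dark-grown libraries, most of it TGG1. FAMA (2.03), which commits guard mother cells, and EPF2 (1.81), an early lineage peptide, rose, while the guard cell channel gene KAT1 (−0.22) and MYB60 (−0.20) were not called. Root markers rose in 2 and fell in 4 of 17 (median −0.02, 0.07 without green replicate 1 and 0.23 without dark-grown replicate 2, with 7 more in the light-grown and 4 more in the dark-grown table only), with a summed level of 322 and 358 rescaled RPKM in green and 629 and 644 in dark-grown libraries. Among those that fell were genes of the endodermis, the root's barrier layer. CASP1, a protein of the Casparian strip, had 14.3 and 23.1 rescaled RPKM in green seedlings, against 191 and 189 in dark-grown ones (log2 change −3.35 ± 0.20, limma adjusted p = 1.61e-05), with CASP2 (−3.70) and their regulator MYB36 (−2.28). The suberin genes HORST (2.32) and ASFT (1.84), of a later state of the same layer, rose. The radial patterning genes SCR (−0.02) and SHR (−0.51) and the root hair gene LRX1 (−0.08) were not called.

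Epidermal cutin and wax genes fell in 3 (5 under TPM-like scaling) and rose in 1 of 15 measured (median −0.54), with a summed level of 3217 and 3461 rescaled RPKM in green and 4979 and 6131 in dark-grown libraries. Lipid transfer proteins of the epidermis exchanged places: LTP2 had 222 and 189 rescaled RPKM in green and 2604 and 3475 in dark-grown seedlings (−3.87), and LTP1 had 1566 and 1705 in green and 212 and 219.8 in dark-grown seedlings (2.92). Of 21 shoot meristem and leaf genes 3 rose and 2 fell (median 0.19), against 1 and 4 under TPM-like scaling (median −0.12), and 2 and 3 with deposited values (median 0.04) or without green replicate 1 (median 0.07). In that list the stem gene KNAT1 had 9.41 and 10.9 rescaled RPKM in green and 48.0 and 47.9 in dark-grown seedlings (−2.19), and the leaf growth factor TCP10 rose (1.90). The summed level of the 21 was 341 and 322 in green and 351 and 379.8 in dark-grown libraries.

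Trichome markers, of the leaf hairs that cotyledons lack, were measured in 5 of 15 genes, of which 1 rose and 1 fell, 5 more had values in the light-grown table only and 1, ETC1 (5.62 and 6.27 RPKM), in the dark-grown table only. Their summed level of 65.6 and 68.3 in green and 127 and 134 in dark-grown libraries held the cell cycle inhibitor SIM at 15.9 and 17.1 in green and 92.5 and 95.1 in dark-grown seedlings, most of the sum in dark-grown libraries alone, and SIM is not particular to trichomes. TRY had 5.10 and 3.87 RPKM, MYB23 5.64 and 4.39 RPKM and MYB106 5.62 and 6.61 RPKM in the light-grown table, all low. No marker of these 5 lists stood at 0 in a library where it was measured. Of all 16393 genes, 5 and 3 stood at 0 in the green libraries and 0 and 0 in the dark-grown ones, so this is no trait of the markers.

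Outside the shared genes, 1040 had a value in the light-grown table only and 978 in the dark-grown table only. Each table leaves out most low genes, so a gene that is near silent in either condition tends to drop out of the shared set, and the counts above do not cover genes switched fully on or off. No change is given for these genes, since the other table holds no value for them. Each table also holds libraries of other lines, which can decide whether it keeps a gene. ACS4 was kept in the light-grown table with 0.296 and 0.0778 RPKM in GFP. The median over the 2 GFP libraries was 3.07 RPKM among light-only genes, of which 209 averaged at least 10 RPKM, and 3.08 RPKM among dark-only genes, of which 126 did. The highest in the light-grown table alone were the glycine-rich GRP9 (670.2 and 377 RPKM), the aldolase FBA5 (288 and 196 RPKM), MAM1, IPMI2 (226 and 136 RPKM) and IMD1 (169 and 106 RPKM), these last 3 of the methionine chain elongation that feeds glucosinolates, and CYP83A1. In the dark-grown table alone they were PORA, the Casparian strip genes CASP5 (237 and 223 RPKM) and CASP4 (77.4 and 55.9 RPKM), the cystatin CYS2 (107 and 128 RPKM), the cysteine protease CP1 (74.3 and 111 RPKM) and FLP1 (72.3 and 67.6 RPKM).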

How the data were processed

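PolyA libraries of whole seedlings, made with a stranded mRNA kit per the labels' protocols, were analysed for the 2 GFP groups, 2 libraries each. Per the file headers, the authors deposited 1 table of RPKM per experiment; the unit is normalized to gene length and library size. The submitters' processing notes name HTSeq 0.5.4, edgeR 3.6.2 and the build TAIR10, without their roles; the aligner is not given in the sources used here. In 1 column of each table the value shares a cell with the gene ID (unit recorded as other) and was split off; 0 columns of no sample were used.

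Low RPKM values are whole multiples of what 1 read is worth. Reads recovered that way were whole (tolerance 0.001) with 1 step per gene across all 10 libraries for 99.933% of shared genes, so both tables used the same gene lengths and 1 factor per library separates them. The columns were therefore rescaled by median-ratio factors over the 16393 shared genes and tested across tables, with limma 3.58.1 in R 4.3.3 on log2(rescaled RPKM + 0.5), 2 against 2, variance trend, two-sided, Benjamini-Hochberg adjustment; the p-values compare libraries of 2 experiments. The fit was also run on values simulated from its own variances, which cannot test the rescaling across tables or an unequal spread between groups. Reads, with counting error only, gave depth and 1 alternative, limma-voom. The annotation (TAIR10.1, RefSeq) named 16347 of the shared loci by locus; promoter windows were read with pysam 0.24.0 and common gene names are used where the annotation's symbol differs.

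The members and the 40 lists (836 loci) were chosen with earlier results of these data known. Named genes are the 12 per direction with the largest change among called genes with a symbol and a mean of at least 10 in the higher group, up to 4 called members per list and direction, up to 2 of the highest, and all reference genes; others are named to complete a pathway and were chosen after their values were seen. Alternatives were other scalings, pseudocounts, a level filter, variance models, all 10 libraries, a replicate block and each library left out.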

Additional observations from a re-analysis of the deposited data

How the results depend on the processing

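The counts of 1976 rises and 1850 falls moved by over 1.5 times under TPM-like scaling, to 1232 rises and 2905 falls, and with no minimum change, to 5220 and 5069. They stayed within 1.5 times under all other alternatives run, among them 1974 and 1852 with TMM scaling, 1536 and 2327 with deposited values (39.8% of calls being rises), 2135 and 1977 with a pseudocount of 0.1, 1800 and 1712 with 1, and 2167 and 2000 with limma-voom on recovered reads. Fits without 1 library gave 1928 to 2118 rises and 1770 to 2009 falls; the lone library of a group is then assumed to vary like the other group. Same-numbered libraries of the 2 groups did not deviate together (r = −0.0413), so the numbers are not taken as pairs; with the number as a replicate block the counts were 1977 and 1853.

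Of 275 named genes run under these settings, 225 were called. Of these, 205 kept call and direction under all 14 alternatives and 0 changed sign, and the 20 that lost a call are marked in the text. Genes that changed sign were all uncalled. Under TPM-like scaling these were PP2AA3 (−0.29), SAND (−0.29), CYP5 (−0.32), TIP41L (−0.23), GLYK (−0.29), PHYD (−0.26), ACO4 (−0.23), PRR7 (−0.11), CHLP (−0.038) and GUN1 (−0.026), in a scaling that moves the median gene by −0.305. With deposited values PP2AA3 (−0.13), SAND (−0.13), CYP5 (−0.15), TIP41L (−0.073), GLYK (−0.13), PHYD (−0.11) and ACO4 (−0.061) did, and in a fit of all 10 libraries CYP5 (−0.0013). FRO3 (−0.0040) turned to 0.0020 with a pseudocount of 1 and 0.013 with limma-voom. Without 1 library the change ranged over −0.010 to 0.21 for ACO4, −0.44 to 0.034 for MYB60, −0.39 to 0.23 for LRX1, −0.0042 to 0.064 for PP2AA3, −0.074 to 0.029 for XCP2, −0.019 to 0.069 for SAND, −0.044 to 0.064 for CYP5, −1.07 to 1.06 for FRO3, −0.11 to 0.074 for SCR, −0.034 to 0.12 for PHYD and −0.14 to 0.027 for UBC9. The sign changes of list medians stand beside those lists. Depth limits the low genes most, and each table leaves most of these out.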

Other observations

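The 35 plastid-encoded genes with a value in both tables went against the nuclear photosynthesis genes: 0 rose and 30 fell, with a median of −2.37, and they held 0.0305% and 0.0242% of the summed RPKM in green, against 0.150% and 0.162% in dark-grown libraries. The libraries were made from polyA RNA, and plastid transcripts mostly carry no stable poly(A) tail; what share of plastid transcripts such libraries hold was not tested. The 2 mitochondrial genes measured fell as well.

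The green libraries lay further apart than the dark-grown ones. Of genes with a mean of at least 10 rescaled RPKM, 62 of 9683 (0.640%) differed at least 2-fold between the 2 green libraries and 9 of 9808 (0.0918%) between the 2 dark-grown libraries. Genes known from the response to iron shortage were among the 62, and the 4 given here, singled out after their values were seen, were higher in green replicate 2 than in green replicate 1. ORG1 had 22.2 and 130.3 rescaled RPKM in green and 18.4 and 17.7 in dark-grown seedlings, the ferric reductase FRO3 had 15.4 and 69.1 in green and 32.9 and 32.8 in dark-grown seedlings, the regulator BTS had 26.1 and 88.8 in green and 14.2 and 15.1 in dark-grown seedlings, and the iron transporter OPT3 had 69.4 and 221 in green and 18.3 and 19.0 in dark-grown seedlings. The iron uptake genes IRT1 (3.70 and 62.6 RPKM) and FRO2 (0.839 and 29.8 RPKM), with values in the light-grown table only, differed the same way between the green libraries. Between the groups BTS rose (1.69), a call lost without green replicate 2 or either dark-grown replicate, and FRO3 came to −0.0040, or −1.07 without green replicate 2 and 1.06 without green replicate 1.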
